A study of Caenorhabditis elegans with 2 samples.

Results

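Binding of UNC-62 in whole L4 larvae of Caenorhabditis elegans was followed at 10 genes of the intestine. They are elt-2 and elt-7, which encode GATA-class transcription factors of the gut, and 8 genes of gut function, namely act-5, fat-5, fat-6, fat-7, cpr-1, cpr-6, dod-6 and ges-1. These are 10 of 19973 nuclear protein-coding genes. A region was assigned to a gene when its summit fell inside the gene or in a window reaching 1000 bp before and 500 bp after the start of any of its transcripts. The genes were selected on their gut roles and on ranks by signal already known from the lists described below, so those ranks describe the genes and test nothing.

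Chromatin immunoprecipitation and sequencing (ChIP-seq) was done on 2 biological replicates of strain OP600, mixed sex, L4 larvae of unstated age. Both carry unc119(ed3) and the transgene wgIs600, which holds unc-62 fused to TY1, EGFP and FLAG sequences and an unc119 copy. The labels name unc-62 for the antibody without saying if it recognised the protein or the tag. There was no other genotype, stage or treatment, and since whole animals were used, binding in gut cells and in other tissues cannot be told apart.

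UNC-62 is a homeodomain protein of the Meis and Homothorax family, whose members bind DNA at words such as TGACAG, often with Pbx-class partners. In the worm intestine, GATA factors bind words of the type TGATAA and switch on most genes of the differentiated gut. ELT-2 is the main factor that keeps this state, and ELT-7 acts beside it. UNC-62 is known from adult worms as a regulator of yolk protein genes in the same tissue.

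The authors' pooled list, made from both replicates and a control, held 4849 regions, and 352 of them reached q-values of 0.05 or below. The lists of replicates 1 and 2 held 18114 and 20477 regions, with 1521 and 604 at that q-value. These 3 lists are unthresholded and contain background. The short list passed through the irreproducible discovery rate step held 197 peaks, called thresholded here. Rank 1 is the highest deposited signal in a list, and that signal is the authors' own, on an unstated scale. The read depth is unknown. Mitochondrial DNA supplied 21 pooled regions, 25 of replicate 2 and 1 of replicate 1. Leaving them out before ranking moved the median pooled rank from 361.5 to 340.5, over the 6 of the 10 genes with a pooled region.

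The sequences under the best pooled summits are shown first, because the summit windows of elt-2, act-5, fat-6, cpr-6 and dod-6 hold GATA-factor words and those of act-5 and dod-6 also hold TGACAG. Each window spans 100 bp on either side of the summit and is written 5′ to 3′ on the strand of the gene. Capitals mark TGACAG and the GATA-factor word, which has 4 spellings (AGATAA or AGATAG, and likewise TGATAA or TGATAG), on either strand, so that TTATCA and CTATCT are the same words read from the other strand. The elt-2 window (chrX:10480723-10480923, plus strand) lies upstream of the gene, as do those of act-5 (chrIII:13606324-13606524, minus strand) and dod-6 (chrIII:10196907-10197107, plus strand). The fat-6 window (chrIV:11914882-11915082, minus strand) and the cpr-6 window (chrX:6607601-6607801, plus strand) have their summits in introns. Sequence and coordinates are those of WBcel235, the ce11 assembly.
elt-2: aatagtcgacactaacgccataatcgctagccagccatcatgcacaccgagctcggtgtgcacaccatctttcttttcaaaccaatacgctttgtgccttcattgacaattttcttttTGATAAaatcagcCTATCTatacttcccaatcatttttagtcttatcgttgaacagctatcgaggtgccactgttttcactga
act-5: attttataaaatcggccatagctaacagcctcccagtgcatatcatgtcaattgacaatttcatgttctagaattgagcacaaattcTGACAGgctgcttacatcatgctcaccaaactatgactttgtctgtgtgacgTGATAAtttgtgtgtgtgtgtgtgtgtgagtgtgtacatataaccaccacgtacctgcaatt
dod-6: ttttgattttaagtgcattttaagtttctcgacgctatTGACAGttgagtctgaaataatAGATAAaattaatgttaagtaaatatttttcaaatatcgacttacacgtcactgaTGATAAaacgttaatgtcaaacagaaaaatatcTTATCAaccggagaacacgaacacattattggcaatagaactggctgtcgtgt
fat-6: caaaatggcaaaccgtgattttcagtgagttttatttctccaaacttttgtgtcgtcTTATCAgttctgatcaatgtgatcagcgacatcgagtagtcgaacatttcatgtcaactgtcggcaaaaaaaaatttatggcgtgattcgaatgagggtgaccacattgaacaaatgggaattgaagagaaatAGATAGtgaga
cpr-6: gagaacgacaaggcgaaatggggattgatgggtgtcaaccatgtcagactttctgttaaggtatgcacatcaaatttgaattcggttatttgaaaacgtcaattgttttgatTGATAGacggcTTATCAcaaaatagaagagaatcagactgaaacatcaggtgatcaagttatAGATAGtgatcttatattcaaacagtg

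In these windows elt-2 has TGATAA 18 bp and AGATAG 31 bp past its summit, counted to the nearest base of each word. The act-5 window has TGACAG 8 bp before the summit and TGATAA 39 bp after it. The dod-6 window has 3 GATA-factor words, the nearest 15 bp away, and TGACAG 57 bp before the summit. In the fat-6 window a TGATAA lies 38 bp before the summit and an AGATAG 90 bp after it, near the edge. The cpr-6 window has 3 GATA-factor words, at 12, 23 and 74 bp after the summit. The cpr-1 window, in coding sequence, has neither kind of word.

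**Figure D1:**
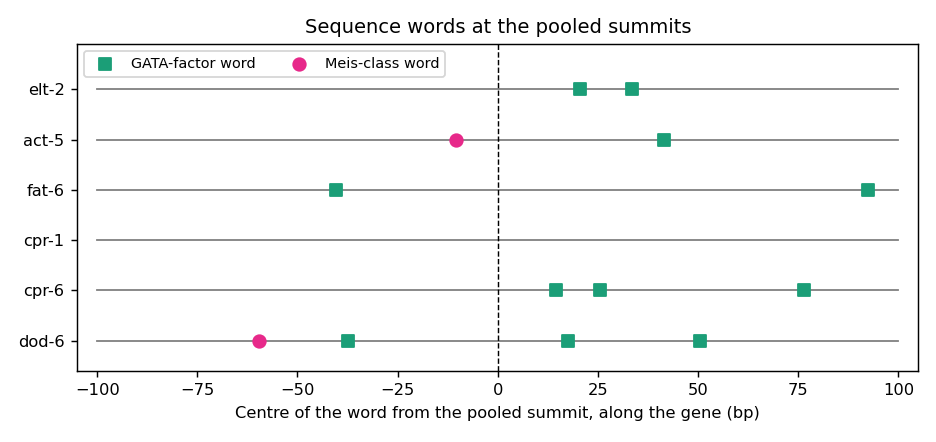
Positions of GATA-factor words (squares) and of TGACAG, the Meis-class word (circles), within 100 bp of the best pooled summit of 6 genes, in bp along the gene with the summit at 0. Of the 6 lines, 5 carry a GATA-factor word and 2 carry TGACAG, while the cpr-1 line is empty.

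Thus 5 of 6 windows had a GATA-factor word and 2 of 6 had TGACAG. The same words were in 45.7% and 9.61% of all 4828 nuclear pooled regions, and in 56.1% and 16.1% of the 979 nuclear regions ranked 1000 or better. They were in 60.2% and 26.7% of the 176 nuclear thresholded peaks. Windows of equal length ending at the start of each of the 19973 genes held them in 42.8% and 6.38%. Both words together were at act-5 and dod-6 among the 6, and in 5.41% of nuclear pooled regions, 11.6% of those ranked 1000 or better and 19.3% of nuclear thresholded peaks. Windows with 3 or more GATA-factor words, as at cpr-6 and dod-6, made up 5.76%, 12.5% and 18.8% of these sets in the same order. A word is a match of letters and does not show that a factor was bound, and 6 windows are too few to set a share against these backgrounds.

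None of the 10 genes had a thresholded peak, a class that reached 0.631% of genes. In the pooled list 6 of the 10 had a region, where 16.9% of genes did, and all 6 ranked 1000 or better, as 3.69% of genes did. These shares were used in choosing the genes and nothing is read from them. At a pooled q-value of 0.05 or less, which 1.29% of genes reached, the count was 2, namely dod-6 and fat-6. Pooled ranks ran from 221 to 629 with a median of 361.5, and the median over the 3366 genes with a pooled region was 2306.5. The 10 genes were not long targets, with a median of 2827 bp searched against 3029 bp over all genes.

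**Figure D2:**
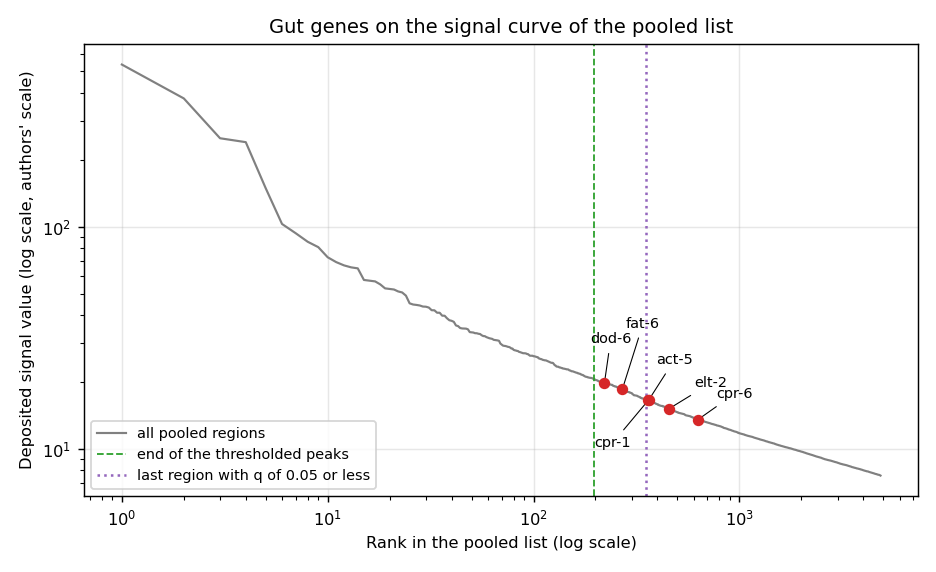
Deposited signal (authors' scale, log axis) against rank (log axis) for all 4849 pooled regions, with the best region of 6 gut genes as points. All 6 lie after the 197 thresholded peaks. The dotted line labelled as the last region with a q-value of 0.05 or less is drawn at 352, the number of such regions. The genes dod-6 and fat-6 lie before that line and the other 4 after it.

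Among the 1000 highest regions, act-5, fat-6 and cpr-1 were the 3 of the 10 genes in replicate 1 (background 3.93%), and all 6 genes of the pooled list were there in replicate 2 (background 3.68%). The replicate lists are long, and presence in them says little by itself. A region was present in replicate 1 for 9 of the 10 genes, where 48.2% of genes had one, and in replicate 2 for 8, where 50.8% did. In both replicates 8 genes had a region, as 30.7% of genes did. With a q-value of 0.05 or less, 4 genes remained in replicate 1 (act-5, fat-6, cpr-1 and cpr-6, background 5.98%) and 4 in replicate 2 (act-5, cpr-1, cpr-6 and dod-6, background 2.24%). Only act-5, cpr-1 and cpr-6 passed in both, as 1.08% of genes did, and for cpr-6 the passing regions of the replicates lay at different places.

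**Figure D3:**
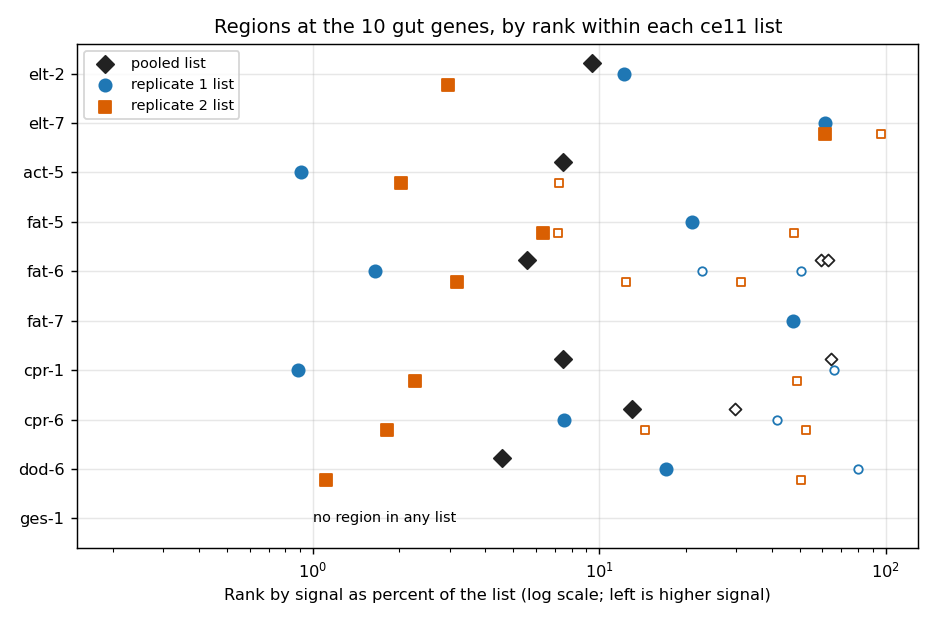
Rank of each region as a percent of its list (log axis, left is higher signal) for the 10 genes in the pooled (diamonds), replicate 1 (circles) and replicate 2 (squares) lists. Filled symbols mark the best region of a gene in a list and open symbols its other regions. The genes act-5 and cpr-1 are far left in both replicates. The best regions of elt-2, fat-5, cpr-6 and dod-6 are further left in replicate 2 than in replicate 1. Those of act-5, fat-6 and cpr-1 are further left in replicate 1, those of elt-7 are nearly level, and ges-1 has no region.

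Of the GATA factors, elt-2 had a region upstream of its start in all 3 unthresholded lists. The gene (X, 10481240 to 10483441) had a pooled region at 10480615 to 10481030 with rank 456, a signal of 15.2 and q = 0.0889. Its summit lay 417 bp upstream of the start. Replicate 1 ranked a region with its summit 490 bp upstream at 2200 (signal 4.78, q = 0.0948), and replicate 2 ranked one 400 bp upstream at 608 (signal 9.43, q = 0.0502). The position was shared to within 90 bp between replicates, but none of the 3 q-values was 0.05 or less. A further pooled region lay 1810 bp upstream, outside the window, at rank 2298 (q = 0.731), with replicate ranks of 5131 and 3088. The 1000 bp upstream of elt-2 held 7 GATA-factor words, a number that 3.08% of genes reached, where the median gene had 2. The same stretch held 7 at act-5, 6 at dod-6, 5 at cpr-6 and 4 at cpr-1. At fat-6 it held 1, a number that 89.9% of genes reached.

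The partner gene elt-7 (V, 4770670 to 4773086) had no pooled region, and its replicate regions were low and apart. Replicate 1 had its summit in a coding exon, 64 bp before an internal start, at rank 11109 (signal 2.72, q = 0.534). The best of replicate 2 was in an intron, 911 bp past that start, at rank 12568 (signal 3.67, q = 0.828), and another lay 270 bp upstream of the outer start at rank 19646 (q = 0.968). These summits lay in different parts of the gene, and none was in the upper 50% of its list by rank. The nearest pooled region outside the window was 6816 bp upstream, at rank 1802. The 1000 bp upstream of elt-7 held 3 GATA-factor words, a number that 47.1% of genes reached.

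Among the effector genes, act-5 encodes the actin of the microvilli of the gut brush border. The gene (III, 13604412 to 13606066, minus strand) had a pooled region at 13606216 to 13606631 with rank 362, a signal of 16.5 and q = 0.0512. Its summit lay 358 bp upstream of the start. Replicate 1 placed a summit 388 bp upstream at rank 164 (signal 9.81, q = 0.0022). Replicate 2 had regions with summits 147 bp upstream at rank 414 (signal 10.5, q = 0.0254) and 358 bp upstream at rank 1477 (signal 7.35, q = 0.186). Both replicates thus had a promoter region with q under 0.05, but the strongest summit of replicate 2 lay 241 bp nearer the start than that of replicate 1, and TGACAG was not within 100 bp of it. A stronger pooled region lay 330 bp past the 3′ end of the gene, at rank 267 (signal 18.6, q = 0.0381), with replicate ranks of 1071 (q = 0.0322) and 323 (q = 0.0202). No gene contained its summit, act-5 had the nearest start, and it was outside the window.

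The fat genes encode delta-9 desaturases, which make monounsaturated fatty acids and in the worm act largely in the intestine, with fat-5 acting on palmitoyl-CoA and fat-6 and fat-7 on stearoyl-CoA. Of the 3, fat-6 alone had a pooled region by the rule. Its best (IV, 11914774 to 11915189) had rank 270, a signal of 18.5 and q = 0.0381, the lowest q-value in that list, which many regions share. The summit was in an intron, 185 bp past an internal annotated start and 705 bp past the outermost one. Replicate 1 ranked a region there at 297 (signal 8.19, q = 0.0118) and replicate 2 at 650 (signal 9.26, q = 0.0608). The replicate summits lay 47 bp apart, the second closest of the 6 genes after cpr-6, at 17 bp. A pair of weaker pooled regions were assigned to fat-6, at ranks 2877 and 3044, and the summit of the first lay nearer to the start of ZK822.9, a neighbouring gene whose window also takes in the best fat-6 summit.

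Of its relatives, fat-5 (V, 17725004 to 17726818) had its best replicate regions on different sides of the start. Replicate 2 had summits 419 and 196 bp upstream at ranks 1304 and 1469 (q = 0.16 and 0.184) and another, 387 bp downstream, at 9786, and replicate 1 had a summit 597 bp downstream at rank 3825 (q = 0.182), in a region that overlaps that weakest one of replicate 2. No GATA-factor word lay in the 1000 bp upstream of fat-5. A pooled region of rank 245 (signal 19.2, q = 0.0381) lay 3018 bp upstream, outside the window, with ranks of 211 (q = 0.0022) and 789 (q = 0.0805) in replicates 1 and 2. No annotated gene contained that summit, fat-5 had the nearest start, and the window of 100 bp on either side held 1 GATA-factor word and 1 TGACAG.

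The remaining desaturase gene, fat-7 (V, 7151353 to 7153146, minus strand), had a region in replicate 1 only, 195 bp upstream at rank 8620 (signal 3.02, q = 0.406). Its 1000 bp upstream held 9 GATA-factor words, a number that 0.541% of genes reached and the most of the 10 genes. The window of the replicate 1 summit held none of them. The nearest pooled region outside the window, 1024 bp past the 3′ end at rank 637, lay in F10D2.8. The coding sequences of fat-6 and fat-7 were identical at 84.1% of 1014 aligned bases, and those of fat-5 and fat-6 at 66.7% of 990. Identity was not measured in introns, where the best fat-6 summits lay, or upstream of the genes. How reads that match several places were treated is not stated.

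The cathepsin B-like proteases CPR-1 and CPR-6 are cysteine proteases of the gut. At cpr-1 (V, 11975551 to 11976756) the pooled region at 11975554 to 11975969 had rank 361, a signal of 16.5 and q = 0.0513. Its summit lay in a coding exon, 211 bp past the start. Replicate 1 ranked a summit 364 bp past the start at 160 (signal 9.90, q = 0.0022), and replicate 2 one 172 bp past it at 463 (signal 10.1, q = 0.0314). All 3 best summits were in coding sequence, with the replicates 192 bp apart. Within the window, a region upstream of cpr-1 was listed in replicate 1 only, 501 bp away at rank 11977 (q = 0.644). Outside it, a pooled region lay 2429 bp upstream at rank 4507 (q = 0.952), with rank 1311 in replicate 1 (q = 0.0378) and none in replicate 2. The ncRNA gene C52E4.17 lay within 500 bp of the best pooled summit.

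At cpr-6 (X, 6607207 to 6609045) the replicates were strongest at different places. The pooled list had a region in an intron, 494 bp past the start, at rank 629 (signal 13.5, q = 0.168), and one 5 bp past the start at rank 1440 (signal 10.6, q = 0.489). The intronic place had rank 1366 in replicate 1 (signal 5.45, q = 0.0399) and 2958 in replicate 2 (signal 6.08, q = 0.367). The best region of replicate 2 lay instead 148 bp upstream, at rank 370 (signal 10.9, q = 0.0176), and no GATA-factor word or TGACAG was within 100 bp of that summit. The intronic summits were 17 bp apart between replicates, so place was shared there, and the ranks were 1366 and 2958. The log2 ratio of replicate 2 to replicate 1 signal there, less the median over shared regions, was -0.38. It lay between the quartiles of all such regions, -0.56 and 0.53, so the replicate difference at that place was not unusual.

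The gene dod-6, named as a gene downstream of the insulin-pathway factor DAF-16, had the highest pooled rank of the 10. The gene (III, 10197716 to 10198352) had a region at 10196799 to 10197214 with rank 221, a signal of 19.8 and q = 0.0381, and its summit lay 709 bp upstream. Replicate 2 ranked a summit 723 bp upstream at 228 (signal 12.6, q = 0.0154), and replicate 1 one 657 bp upstream at 3097 (signal 4.34, q = 0.145). The high pooled rank was thus matched by replicate 2 and not by replicate 1. A window of 500 bp upstream in place of 1000 left dod-6 without a pooled region.

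The gut esterase gene ges-1 (V, 1427653 to 1432137, minus strand), a classic marker of gut differentiation, had no region in any list, although it had the longest searched stretch of the 10, at 5485 bp. The nearest pooled summit was 2734 bp upstream at rank 3722 (q = 0.899). Its 1000 bp upstream held 3 GATA-factor words and 1 TGACAG. The 200 bp of the 2000 bp upstream with the most GATA-factor words held 2, at chrV:1432515-1432714, from 378 to 577 bp before the start, and are shown on the minus strand as a gut promoter with such words and no region.
ges-1: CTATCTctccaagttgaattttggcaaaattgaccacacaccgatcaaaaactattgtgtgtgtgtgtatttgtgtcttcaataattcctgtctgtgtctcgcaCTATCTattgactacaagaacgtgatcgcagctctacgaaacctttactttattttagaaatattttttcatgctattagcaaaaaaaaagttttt

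**Figure D4:**
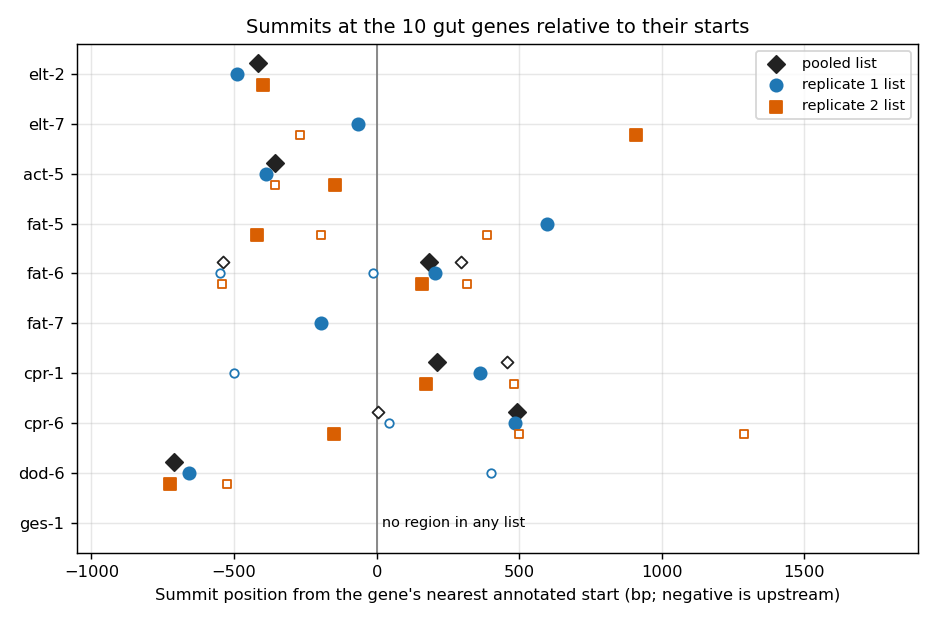
Summit positions in bp from the nearest annotated start of each of the 10 genes (negative is upstream) in the pooled (diamonds), replicate 1 (circles) and replicate 2 (squares) lists, with filled symbols for the best region of a gene in a list. The best summits of elt-2, act-5 and dod-6 stay upstream in all 3 lists and those of cpr-1 stay downstream, while those of elt-7, cpr-6 and fat-5 lie on both sides of the start.

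Over the 6 genes with a pooled region, 3 best summits were upstream of the gene, 2 in introns and 1 in a coding exon. Of the 3366 genes with a pooled region, 40.8% had the best summit upstream, 28.8% in an intron and 20.3% in a coding exon. A window of 5000 bp on either side of a start, chosen after seeing the data, gave 9 of the 10 genes a pooled region, all but elt-7, where 36.6% of genes had one. The gap between replicate summits ran from 17 bp at cpr-6 to 241 bp at act-5, where the median over the 2794 nuclear pooled regions found in both replicates was 96.5 bp. Replicate balance differed between the genes. The log2 ratio of replicate 2 to replicate 1 signal, less its median over those 2794 regions, was 1.00 at dod-6 and 0.44 at elt-2. It was -0.36 at fat-6, -0.38 at cpr-6, -0.45 at act-5 and -0.50 at cpr-1. The middle 50% of all such regions lay between -0.56 and 0.53, and by this measure dod-6 alone of the 6 was outside it, on the side of replicate 2. Where several replicate regions overlapped the pooled one, the highest-ranked was taken. At act-5 that was the replicate 2 region of signal 10.5, not the one of signal 7.35 at the pooled summit. The act-5 ratio thus compares summits 241 bp apart, and its place within the middle 50% rests on that choice.

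By the sum of absolute log2 rank differences over the 3 unthresholded lists of the 2 replicates, act-5 and cpr-1 were each other's nearest match among 2646 genes with a region in all 3, at 0.20. Their ranks were 362, 164 and 414 against 361, 160 and 463 in the pooled, replicate 1 and replicate 2 lists. The next for both was unk-1 (401, 131 and 488). For elt-2 the nearest were vps-25 (454, 1925 and 620) and sid-5 (435, 2672 and 581). For fat-6 they were C52B11.5 (291, 268 and 714) and Y4C6B.3 (289, 295 and 809), and for cpr-6 unc-115 (632, 1322 and 331) and daf-14 (575, 1306 and 401). The nearest to dod-6 were farther off, at 0.78 for ech-9 (284, 2501 and 212) and 0.79 for nhr-178 (316, 3504 and 214).

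Around these genes, 95 genes in 10 lists were counted by the same rule. Most lists are of gut-related families, but they also hold 4 GATA factors outside the gut and the actin genes besides act-5. The share is therefore not one of gut genes alone. Of the 95 genes, 43 (45.3%) had a pooled region, where 16.9% of all genes did. Without the 10 members it was 37 of 85. The lists were drawn up with earlier results known and overlap, so these are counts and not tests. Longer genes give more room for a summit, and the median stretch searched was 5699 bp for the brush border list, 2646 bp for the gut proteases and 3029 bp for all genes.

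**Figure D5:**
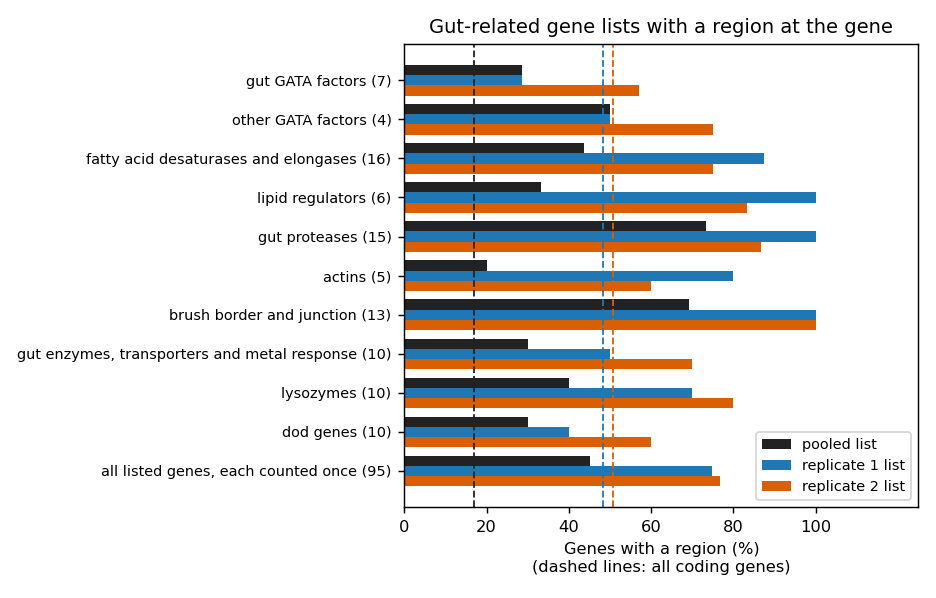
Percent of the genes of each list (number of genes in brackets) with a region in the pooled, replicate 1 and replicate 2 lists, as bars from 0, with dashed lines at the values for all coding genes of 16.9%, 48.2% and 50.8%. Gut proteases and brush border genes have the longest pooled bars, at 73.3% and 69.2%.

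Gut proteases had the largest pooled share of the 10 lists, with 11 of 15 genes, and 8 of them ranked 1000 or better. The highest was cpl-1, a cathepsin L-like protease gene, with a thresholded peak at rank 195 (signal 20.7, replicate ranks 155 and 510) in an intron whose summit window held 3 GATA-factor words. The aspartyl protease gene asp-6 ranked 339 and asp-2 ranked 954, both with the summit in an intron, with 0 and 1 GATA-factor words near it. The cathepsin B-like genes cpr-3, cpr-4 and cpr-9 ranked 404, 439 and 559, each with the summit upstream, at 130, 167 and 624 bp, and each with 3 GATA-factor words near it, as at cpr-6 and unlike cpr-1, which had 0. The replicates were unequal here too. Replicate 1 ranked cpr-3 at 14152 and asp-2 at 14499, where replicate 2 ranked them at 630 and 634. No pooled region lay at cpr-2, cpr-5, asp-4 or asp-5.

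Of the 16 desaturase and elongase genes, 7 had a pooled region. The highest was fat-4, a delta-5 desaturase gene, with a thresholded peak at rank 163 (signal 22.0, replicate ranks 97 and 355), in an intron and 296 bp before an internal annotated start, with 2 GATA-factor words and 1 TGACAG in its summit window. The elongase genes elo-1 and elo-5 ranked 533 and 988, with 1 and 0 GATA-factor words. No pooled region lay at fat-1 or fat-3. Among the lipid regulators, which include the nuclear receptor NHR-49 and its coactivator MDT-15, 2 of 6 had a pooled region and none ranked 1000 or better.

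In the brush border and junction list 9 of 13 genes had a pooled region. The intermediate filament gene ifc-2 had a thresholded peak at rank 91 (signal 26.9, replicate ranks 212 and 73) in an intron, with the start of M6.11 nearest and 0 GATA-factor words. The genes eps-8 and dlg-1 ranked 807 and 918, with 0 and 2 such words. The other actin genes, act-1 to act-4, had no pooled region, so act-5 supplied the only one in that family of 5. The coding sequences of act-5 and act-4 were identical at 85.2% of 1125 aligned bases. The pooled summit of act-5 lay upstream of the gene, where identity was not measured, and act-1 to act-3 were not aligned. The treatment of reads that match several places is not stated for these genes either. In the list of enzymes, transporters and metal response genes, 3 of 10 had a pooled region, and the peptide transporter gene pept-1 had a thresholded peak at rank 165 (signal 21.9, replicate ranks 66 and 1604) with 0 GATA-factor words, and pgp-1 ranked 491 with 2.

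Of the 7 gut GATA factors only elt-2 ranked 1000 or better. The endoderm factor gene end-1, named after its values were seen, had a pooled region at rank 1033 in a coding exon, with rank 592 in replicate 2 and none in replicate 1. No pooled region lay at elt-4, elt-7, end-3, med-1 or med-2. Of 4 GATA factors outside the gut, elt-3 and egl-18, also named after their values were seen, ranked 2263 and 2030, and elt-1 and elt-6 had none. Lysozyme genes had 4 of 10 and dod genes 3 of 10 with a pooled region, and of these 7 only dod-6 ranked 1000 or better.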

How the data were processed

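UNC-62 binding was measured by ChIP-seq in whole L4 worms, 2 biological replicates of a single group, without a second condition. The authors deposited narrowPeak lists for ce11. Each replicate list, per the file headers, came from that replicate and a control, the pooled list from both replicates and a control, and the thresholded list from those 3 lists by irreproducible discovery rate (IDR). Not given in the sources used here are the peak caller, the IDR threshold and the depth. Signal as deposited is the authors' own, made against a control on an unstated scale, and ranks regions within a list. The deposited −log10 of the q-value was turned into q. Replicate signals were also compared as a log2 ratio, less its median over the nuclear pooled regions found in both replicates, which cancels a constant factor.

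Summits were assigned with Python 3.11.15 and NumPy 2.4.6 to nuclear protein-coding genes of WBcel235 (Ensembl release 115). No region lay past a chromosome end. Coding sequences were aligned with Biopython 1.88. Assignment was checked on simulated regions. Figures were drawn with Matplotlib 3.10.9.

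The 10 genes, the wider lists and the alternatives were chosen with earlier results of these data known, so no test was made and all values are descriptions. The 10 genes are named whatever their values. Other named genes are those of the wider lists with a pooled rank of 1000 or better, the gene whose start is nearest to a summit where it is another gene, and the 2 genes most like each member. Outside this rule, genes of the wider lists without a pooled region or with a lower rank, and regulators given as background, were named after their values were seen. Alternatives covered the window, starts, assignment, thresholds, ranking, word window and single replicates. Lists for ce10 were not used.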

Additional observations from a re-analysis of the deposited data

How the results depend on the processing

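No paired analysis was possible because the study holds a single group. Of 59 alternatives, 49 left the count of genes within 1.5 times, or the median rank within the standard deviation of the 2 replicate medians. That deviation, 1177, is larger than the pooled median of 361.5. Some counts could not move, such as those with mitochondrial regions left out. Counts of 8 or 9 among 10 genes could not rise 1.5 times. The 49 is therefore no measure of stability. At a q-value of 0.05 or less the count of genes with a region was 2 in place of 6 in the pooled list, 4 in place of 9 in replicate 1, 4 in place of 8 in replicate 2 and 3 in place of 8 in both. Among the 1000 highest regions it was 3 in replicate 1 and 3 in both. The share of all genes among the 1000 highest in both was not computed, so nothing is read from that last count. The count of genes with TGACAG was 2 in the pooled list, 1 within 50 bp (act-5), and 1 from either replicate alone, dod-6 in replicate 2 and act-5 in replicate 1. A GATA-factor word was at 5 of the 6 genes with a pooled region. It was at 6 of 9 genes from replicate 1 alone and 4 of 8 from replicate 2 alone. These windows are too few to compare shares, and the share over all regions of each replicate list was not computed. From replicate 2 alone 8 genes had a region, with a median rank of 535.5, and from replicate 1 alone 9, with 2200. Those lists are longer and bring in genes without a pooled region (elt-7 and fat-5 in both, fat-7 in replicate 1). The medians are therefore not over the same genes as the pooled 361.5 over 6. In replicate 1 the added genes ranked 3825, 8620 and 11109, and the best ranks of the 6 shared genes ran from 160 to 3097. In replicate 2 the added genes ranked 1304 and 12568, and the 6 shared genes ran from 228 to 650. The cause of these shifts was not tested. A window of 5000 bp, chosen after seeing the data, gave 9 of 10 genes a pooled region, where 36.6% of all genes had one. Depth is unknown, so a missing region does not show that UNC-62 was absent.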
